A study of Mus musculus with 3 samples.

Results

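Genes widely used to recognise mature, migratory dendritic cells were followed here cell by cell: Ccr7, Fscn1, Ccl22, Ccl17, Il4i1 and Cacnb3. They are 6 of the 14148 gene rows of the count tables, and they were picked by name with earlier results of the same data known, so their levels are given as a description and no test was made on them. The data are droplet-based single-cell RNA sequencing of sorted CD45+ immune cells from the small-intestinal muscularis externa of 12-week-old WT C57BL/6J mice. There were 3 libraries, each pooled from several mice: naïve mice, and mice taken 24 h or 72 h after intestinal manipulation, a surgical model in which the gut is handled through an abdominal incision and the muscle layer becomes inflamed. No library of mice that had the incision without handling of the gut was analysed here. Each time point is 1 library, so a difference between time points and a difference between libraries cannot be told apart, and nothing below is called changed.

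Dendritic cells take up antigen in tissue and, once they mature, stop taking it up and travel through lymph vessels to the draining node to show it to T cells. CCR7 is the receptor that guides them along its ligands CCL19 and CCL21, and fascin, the product of Fscn1, bundles the actin of their long processes. CCL17 and CCL22 are chemokines that both bind CCR4, a receptor found on regulatory and helper T cells. Il4i1 encodes a secreted enzyme that oxidises aromatic amino acids, and Cacnb3 encodes a cytoplasmic beta subunit of voltage-gated calcium channels. Ccr7 is also carried by B cells and by naïve and central memory T cells, which is how these cells enter lymph nodes.

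On the GRCm38 build all 6 are protein-coding genes. Ccr7 lies at chr11:99144196-99155077 on the minus strand, Fscn1 at chr5:142960343-142973185 on the plus strand and Cacnb3 at chr15:98630840-98644529 on the plus strand. Ccl22 at chr8:94745590-94751699 and Ccl17 at chr8:94810453-94812036 are neighbours on the plus strand, 58.8 kb apart, with 1 coding gene, Cx3cl1, between them. Il4i1 at chr7:44816387-44840809 on the plus strand overlaps Nup62 on the same strand, and Atf5 and Tbc1d17 on the other, so some of its counts could belong to an overlapping gene. The stretches of reference sequence below, just upstream of the annotated starts, are shown because they belong to the pair of chemokine neighbours, whose levels part from each other below, and to Fscn1, the gene with the largest share of its UMIs in the 31 cells that had at least 3 of the genes. They come from RefSeq promoters on GRCm38.p6, where 5 of the 6 genes had an entry, and Ccr7 is named only. All 3 are on the plus strand, the Fscn1 stretch at chr5:142960105-142960342, the Ccl22 stretch at chr8:94745434-94745589 and the Ccl17 stretch at chr8:94810203-94810452. Capitals mark matches to the motifs searched.
Fscn1: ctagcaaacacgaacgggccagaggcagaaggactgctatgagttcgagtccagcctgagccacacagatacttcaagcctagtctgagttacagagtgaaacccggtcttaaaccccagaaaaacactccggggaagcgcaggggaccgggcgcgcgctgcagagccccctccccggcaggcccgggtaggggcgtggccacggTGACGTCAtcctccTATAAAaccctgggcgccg
Ccl22: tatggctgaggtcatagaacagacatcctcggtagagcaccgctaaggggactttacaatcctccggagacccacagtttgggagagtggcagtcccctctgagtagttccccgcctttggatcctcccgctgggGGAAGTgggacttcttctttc
Ccl17: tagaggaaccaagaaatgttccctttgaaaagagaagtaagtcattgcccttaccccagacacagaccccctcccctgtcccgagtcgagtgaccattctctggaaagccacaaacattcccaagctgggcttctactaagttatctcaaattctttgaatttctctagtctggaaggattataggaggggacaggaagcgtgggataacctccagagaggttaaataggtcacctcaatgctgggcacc
In the Fscn1 stretch the capitals mark TGACGTCA, the palindrome known as the cyclic AMP response element, and TATAAA, the TATA box. In the Ccl22 stretch they mark GGAAGT, a core bound by ETS factors. The 5 motifs were chosen after the sequences had been seen and were searched on both strands of the 250 bases before the start. TGACGTCA was in 1.55% of all 32851 such windows, TATAAA in 12.4% and GGAAGT in 19.7%. GGAAGT was also in the windows of Cacnb3 and Il4i1. The interferon-stimulated response element was in 2.98% of windows and an NF-kB type site in 1.41%, and neither was in a window of the 5 genes. These are letter matches in a window and no factor binding was measured.

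The libraries held 652 cells with 1865221 UMIs (naïve), 2211 cells with 10542346 UMIs (24 h) and 1239 cells with 5246731 UMIs (72 h), with medians of 2134.5, 4669 and 3295 UMIs a cell. Levels are CPM, the UMIs of a gene scaled by all UMIs of the class, from counts summed over its cells, followed in parentheses by an exact 95% Poisson interval, and shares of cells carry an exact 95% binomial interval. All intervals cover counting error only, and single cells vary by more, so they are too narrow. Clustering gave 17 clusters, of which 15 were named from markers, and the 6 genes had no part in the clustering or the names. The dendritic cell (DC)-like class had 267 of 4102 cells: 20 naïve cells (3.07%), 116 at 24 h (5.25%) and 131 at 72 h (10.6%). It was made of a 226-cell cluster led by Cd209a, Kmo and Mgl2, a 20-cell cluster led by Xcr1, and a 21-cell cluster that had 0 naïve cells, 9 cells at 24 h and 12 at 72 h. The genes leading this 21-cell cluster were the 6 genes themselves. It met the DC rule with 5 markers at least 2-fold above other cells: Flt3, the receptor for the main dendritic cell growth factor, in 10 of its 21 cells, Dpp4, Cbfa2t3, Klrd1 and H2-DMb2. Cd209a, Xcr1, Clec9a and Ifi205 were at 0 in it. Some general DC markers were also low in it: Itgax was in 2 of 21 cells, at 25.5 against 113 CPM in the Cd209a cluster, and Kmo in 3 of 21, at 34.0 against 132 CPM. Zbtb46 was in 2 of 21, at 17.0 against 25.7 CPM, a ratio of 0.662 (0.0773 to 2.57), so its order is not settled. The 94-cell cluster led by Pclaf, Stmn1 and Top2a, genes of dividing cells, had 6 B cell markers at least 2-fold above other cells, and the 237-cell cluster led by Siglecf, a marker of eosinophils, and Ptgs2 had 6 neutrophil markers. Both were left without a class name because their leading genes went against it, and are called the dividing cluster and the Siglecf cluster.

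Summed over the 3 libraries, all 6 genes had their highest level in DC-like cells, where 1.95% of 11222 other genes stood at least 2-fold above the remaining cells and 3.73% at least 2-fold below. The chemokine Ccl17 was the most abundant of them. In DC-like cells it stood at 215 CPM (125 to 344) in the naïve library, 385 CPM (343 to 432) at 24 h and 573 CPM (525 to 624) at 72 h. The naïve value rested on 17 UMIs in 3 cells, of which 15 were in 1 cell. Ccl17 was also the only one of the 6 with any UMI in naïve DC-like cells. The others were at 0 in all 20 of these cells, where 3 counts would make 37.9 CPM, so a level below that could have been missed.
Its neighbour Ccl22 stood at 183 CPM (154 to 217) at 24 h, with 140 UMIs in 16 cells, and at 102 CPM (82.7 to 125) at 72 h, with 94 UMIs in 14 cells. A single cell at 72 h held 55 of those 94 UMIs, and without it the 72 h level was 42.7 CPM. Over the whole class Ccl17 was thus higher at 72 h and Ccl22 lower, an order that the 21-cell cluster did not share, as its values below show.

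The receptor Ccr7 had no UMI in naïve DC-like cells, 65 UMIs in 10 cells at 24 h (85.2 CPM, 65.7 to 109) and 108 UMIs in 11 cells at 72 h (118 CPM, 96.5 to 142). It is the member shared with lymphocytes. In B cell-like cells it stood at 98.0 CPM (71.8 to 131) in the naïve library, 87.3 CPM (32 to 190) at 24 h and 95.8 CPM (47.8 to 171) at 72 h. Over all libraries the ratio of the DC-like to the B cell-like level was 1.02 (0.759 to 1.38), so the order of these 2 classes is not settled. The way the level was made up differed, since B cell-like cells with a UMI had a median of 1 in each library and DC-like cells a median of 3.5 at 24 h and 9 at 72 h. T cell-like cells, which here include cells that could be natural killer or innate lymphoid cells, stood at 11.9 CPM. In monocyte/macrophage (Mo/Mφ)-like cells 18 of 2268 cells (0.794%) had a UMI, against 21 of 267 DC-like cells (7.87%), at median depths of 5588.5 and 6455 UMIs. The part of free RNA in either share was not tested.

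Fscn1, the actin bundler, and Cacnb3, the calcium channel subunit, were found in few cells outside the DC-like class. Fscn1 was at 0 in naïve DC-like cells, 109 CPM (86.6 to 135) at 24 h with 83 UMIs in 8 of 116 cells, and 151 CPM (127 to 179) at 72 h with 139 UMIs in 14 of 131 cells. Cacnb3 was at 0 in the naïve library, 40.6 CPM (27.6 to 57.7) at 24 h and 66.4 CPM (50.8 to 85.3) at 72 h. In Mo/Mφ-like cells Fscn1 stood at 0.791 CPM, in 10 of 2268 cells with 1 UMI each, and Cacnb3 at 0.633 CPM. Neither gene had a UMI in the 540 neutrophil-like cells, whose median depth of 941 UMIs was lower. Fscn1 had a second, weaker location in the dividing cluster, where it stood at 37.5 CPM in the naïve library. These 12 UMIs lay in 8 cells, each of which also had at least 2 B cell markers. The 72 h value of the dividing cluster, 34.1 CPM, rested on 11 UMIs of which 10 were in 1 cell.

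The enzyme gene Il4i1 stood at 0 in naïve DC-like cells, 136 CPM (111 to 165) at 24 h and 80.6 CPM (63.3 to 101) at 72 h. B cell-like cells had 66.1 CPM (44.9 to 93.8) in the naïve library, in 24 of 225 cells, and the dividing cluster had 59.4 CPM there, so that these classes were the highest in that library and their ratio was 1.11 (0.609 to 2.08). At 24 h B cell-like cells had 131 CPM, from 9 UMIs in 2 cells, and at 72 h 52.2 CPM, from 6 UMIs in 3 cells. The DC-like level was 1.04 times the B cell-like level at 24 h (0.528 to 2.34) and 1.54 times at 72 h (0.676 to 4.34), so the order of these 2 classes is not settled within a library. The ratio over all libraries was 1.43 (1.03 to 2.03), but 225 of the 300 B cell-like cells were naïve and all the DC-like Il4i1 came from the later libraries. In the dividing cluster 24 of the 25 Il4i1 UMIs were in cells with at least 2 B cell markers. Ccl22 and Cacnb3 had no UMI in any of the 300 B cell-like cells, and Fscn1 and Ccl17 had 1 and 3 UMIs there, so Ccr7 and Il4i1 made up nearly all that B cell-like cells had of this group. Of the B cell-like cells, 10 had 2 of the genes, and in 9 of them the pair was Ccr7 and Il4i1.

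**Figure D1:**
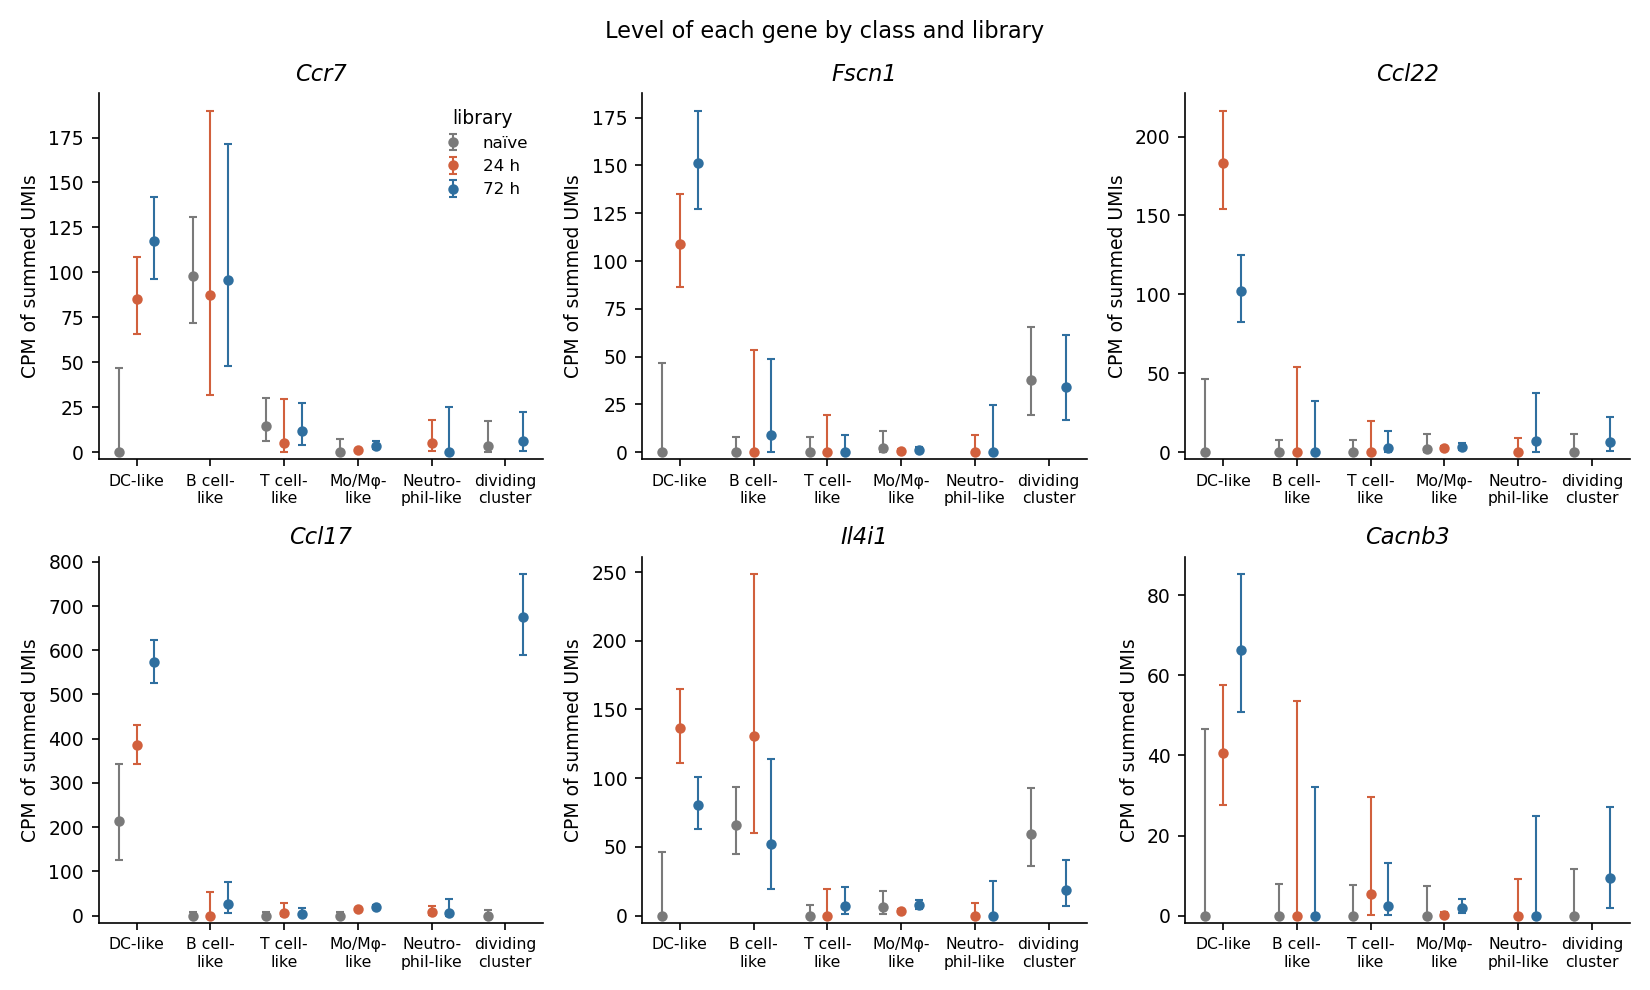
Level of each gene as CPM of summed UMIs (vertical axis) in 6 classes of cells (horizontal axis), by library, where points are levels and bars are exact 95% Poisson intervals of counting error. A class with fewer than 20 cells in a library is not drawn, and at 24 h and 72 h DC-like cells are highest for Fscn1, Ccl22 and Cacnb3, B cell-like cells come near them for Ccr7 and Il4i1, and the high Ccl17 point of the dividing cluster at 72 h holds 153 of its 218 UMIs in 1 cell.

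Ccl17 was also found outside the DC-like cells, which held 66.6% of its 1257 UMIs. In the dividing cluster at 72 h it stood at 676 CPM, above the DC-like level, but 153 of the 218 UMIs were in 1 cell and the level without that cell was 211 CPM. Mo/Mφ-like cells had 128 Ccl17 UMIs at 24 h, 53 of them in 1 cell, and 60 at 72 h. Over all libraries 60 of 2268 Mo/Mφ-like cells had a Ccl17 UMI (2.65%). DC-like cells held 62.9% of the Ccr7 UMIs, 86.7% of Fscn1, 86.0% of Ccl22, 57.4% of Il4i1 and 87.6% of Cacnb3.

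The genes met in the same cells. Of the 4102 cells, 3732 had a UMI of none of the 6, 306 had 1 of them and 33 had 2. A further 9 cells had 3, 5 had 4, 13 had 5 and 4 had all 6. The 31 cells with UMIs of at least 3 of the genes are called co-detecting cells here, and they are the cells just inside this limit and beyond, with the 33 cells of 2 genes just outside it. There were 0 among 652 naïve cells, where 3 cells would make 0.460% and the exact interval reaches 0.564%. At 24 h there were 15 of 2211 (0.678%, 0.380 to 1.12) and at 72 h 16 of 1239 (1.29%, 0.740 to 2.09). After each cell was thinned to 1000 UMIs, and shallower cells were left out (47, 305 and 162), there were 0 of 605, 7 of 1906 and 9 of 1077. Clusters found without the 6 genes placed 27 of the 31 cells in the DC-like class (87.1%, 70.2 to 96.4). Of these, 21 made up the whole of the 21-cell cluster and 6 were in the Cd209a cluster, 5 of them at 24 h. The other 4 were 3 Mo/Mφ-like cells, which all held Ccl17 and Ccl22 and no Fscn1 or Cacnb3, and 1 cell of the dividing cluster.

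These 31 cells, 0.756% of all cells, held 89.8% of all Fscn1 UMIs, 87.6% of Cacnb3, 83.8% of Ccl22, 63.6% of Ccr7, 53.2% of Il4i1 and 36.8% of Ccl17. Il4i1 was in 29 of them, Ccl22 in 24, Ccr7 in 22, Fscn1 and Cacnb3 in 21 each and Ccl17 in 19. Within the cells the genes varied widely. In the 15 cells of the 24 h library the lowest, median and highest UMIs a cell were 0, 2 and 27 for Ccr7, 0, 9 and 19 for Ccl22, and 0, 4 and 54 for Ccl17. In the 16 cells of the 72 h library they were 0, 1.5 and 41 for Ccr7, 0, 3 and 55 for Ccl22, and 0, 1 and 133 for Ccl17. The ranges of the libraries overlap for each of the 6 genes. Fscn1 ran from 0 over 0 to 23 UMIs at 24 h and from 0 over 6 to 33 at 72 h, and Cacnb3 from 0 over 2 to 6 and from 0 over 2 to 15. Il4i1, found in the most co-detecting cells, ran from 1 over 5 to 22 UMIs at 24 h and from 0 over 3.5 to 13 at 72 h. One 72 h cell of 4865 UMIs had 133 UMIs of Ccl17 and 55 of Ccl22 with 1 of Fscn1 and none of Ccr7 or Cacnb3. It had 5 UMIs of Il4i1, so it is high in both chemokines and not in Fscn1, Ccr7 or Cacnb3.

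**Figure D2:**
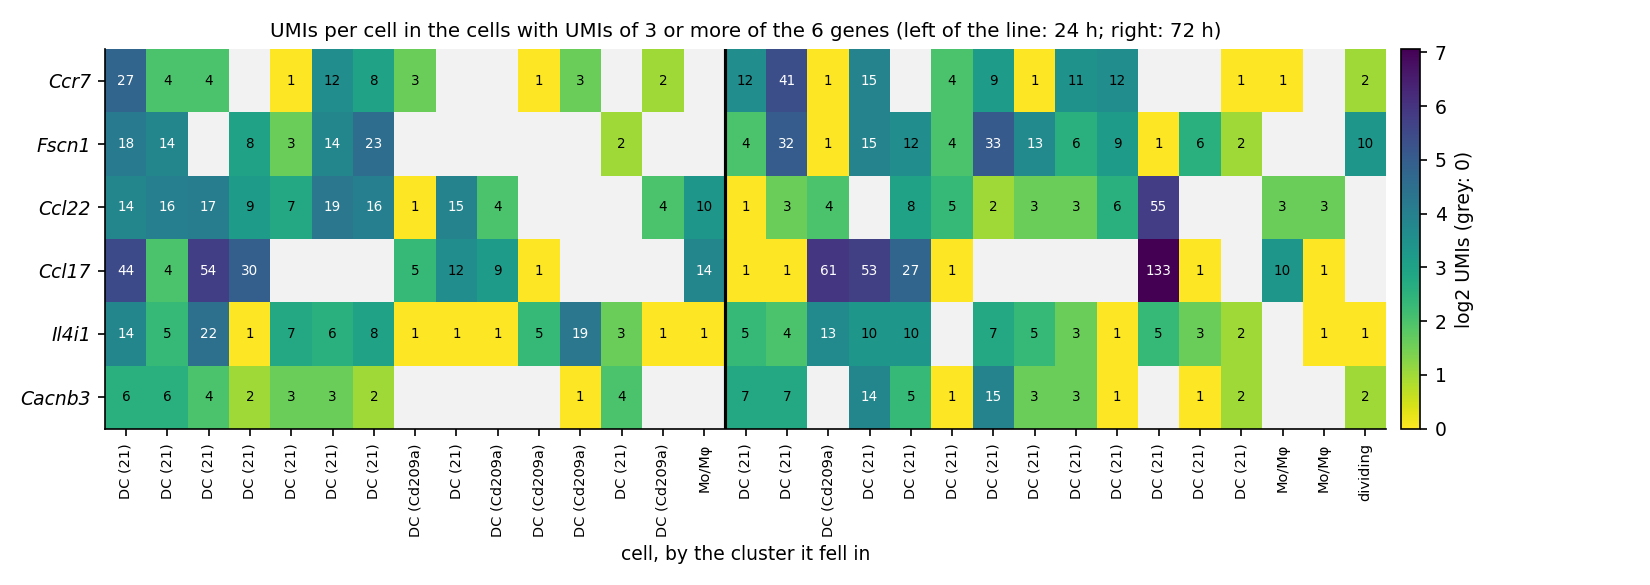
UMIs of each of the 6 genes (rows) in each of the 31 cells with at least 3 of them (columns, labelled by cluster), 15 from 24 h left of the line and 16 from 72 h right of it, with colour as log2 UMIs and grey for 0. The columns of the 21-cell cluster, marked DC (21), have most genes filled, while Ccl17 in them is at 27 UMIs and above, at 12 in 1 cell, or at 4 and below.

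Markers of B and T cells were low in the co-detecting cells, while Mo/Mφ markers were present, with Lyz2 in 30 and C1qa in 16 of the 31. The summed level of 9 B cell markers was 79.2 CPM, against 56385 CPM in B cell-like cells, and Cd79a, Cd79b, Ms4a1, Pax5 and Ighd were at 0. The 9 T cell markers summed to 33.9 CPM, against 8591 CPM in T cell-like cells, with Trac, Trbc1, Trdc and Lck at 0. The 18 Mo/Mφ markers, several of which DCs also have, summed to 4162 CPM, against 10438 CPM in the other DC-like cells and 37468 CPM in Mo/Mφ-like cells, and none was at 0. The part of Mo/Mφ-derived RNA in these cells was not tested. Of the cell barcodes, 3 occurred in more than 1 library, and none of these was a co-detecting cell.

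The DC-like class was not uniform. In the 21-cell cluster the levels were 1377 CPM (1173 to 1606) for Ccr7, 1861 CPM (1623 to 2125) for Fscn1, 1691 CPM (1465 to 1944) for Ccl22, 3068 CPM (2760 to 3402) for Ccl17, 1037 CPM (861 to 1238) for Il4i1 and 756 CPM (608 to 931) for Cacnb3. All 6 were more than 2-fold above the Cd209a cluster, as were 7.85% of 6271 other genes. In the Cd209a cluster Fscn1 stood at 2.08 CPM and Cacnb3 at 1.39 CPM, which is 3 and 2 UMIs in 226 cells. Ccr7 stood at 6.94 CPM, Ccl22 at 22.9 CPM and Il4i1 at 38.9 CPM there. Ccl17 was different, at 329 CPM in 54 of the 226 cells, with 474 of its 1257 UMIs, more than the 361 of the 21-cell cluster. The 20 cells of the Xcr1 cluster had 2 UMIs each of Ccl22 and Ccl17, 1 each of Ccr7 and Cacnb3, and none of Fscn1 or Il4i1.
In the Cd209a cluster Ccl17 stood at 223 CPM (130 to 356) in naïve cells, 223 CPM (189 to 262) at 24 h and 444 CPM (396 to 497) at 72 h. The 72 h level was 1.99 times the 24 h level (1.63 to 2.44), and 1.82 times after the highest cell of each library was left out. Among the 5864 other genes compared in this cluster, 1.89% were at least 2-fold higher at 72 h and 1.86% at least 2-fold lower. Ccl22 stood at 40.1 CPM (26.4 to 58.4) at 24 h and 8.68 CPM (3.19 to 18.9) at 72 h in the same cells, and Il4i1 at 55.0 CPM (38.7 to 75.8) and 27.5 CPM (16.5 to 42.9). These are 27 and 6 UMIs of Ccl22, and 37 and 19 UMIs of Il4i1. Of the Il4i1 UMIs, 19 at 24 h and 13 at 72 h were in 1 cell each, both among the 6 cells of this cluster with at least 3 of the genes. Without the highest cell of each library the 72 h level was 0.326 times the 24 h level for Il4i1 (0.106 to 0.857). For Ccl22 it was 0.108 times (0.0122 to 0.452).

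Within the 21-cell cluster Ccl17 split the cells. In 7 cells it had 10 or more UMIs and in 14 cells fewer, a limit chosen after the values were seen. The 7 cells had 7679 CPM of Ccl17 and the 14 cells 112 CPM. Summed over both libraries, Ccl22 followed, at 2567 and 1130.0 CPM, and Il4i1 stood at 1371 and 823 CPM. Fscn1 and Ccr7 stood the other way, at 1175 and 2302 CPM for Fscn1 and at 1001 and 1618 CPM for Ccr7, and Cacnb3 at 674 and 809 CPM. Ccr7 was in 3 of the 7 cells and in 12 of the 14. Ccl22 and Ccr7 did not keep this order at 24 h, with 2539 and 2686 CPM for Ccl22 and 1431 and 1158 CPM for Ccr7. At 72 h Ccl22 stood at 2592 and 459 CPM, and Ccr7 at 617 and 1817 CPM. Of the 63 Ccl22 UMIs in the cells high in Ccl17 at 72 h, 55 were in 1 cell. Fscn1 and Il4i1 kept their order in both libraries. Cacnb3 stood at 554 and 833 CPM at 24 h and was nearly level at 72 h, at 782 and 799 CPM. The split is a description of 21 cells and no test was made on it.

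**Figure D3:**
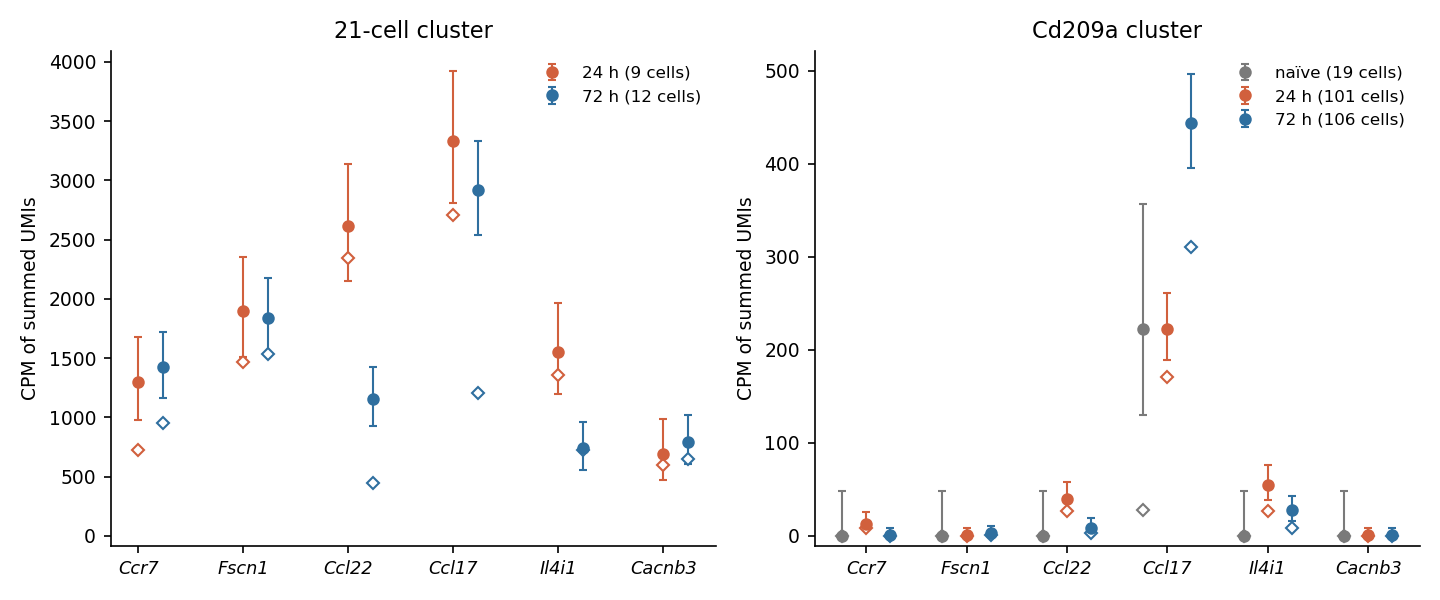
Level of each gene as CPM of summed UMIs in the 21-cell cluster (left) and the Cd209a cluster (right), by library, where filled points are levels, bars are exact 95% Poisson intervals of counting error and open diamonds are levels without the cell with the most UMIs of that gene. The axes differ, with Fscn1 at 1861 CPM over the left cluster and 2.08 CPM over the right one, and Ccl17 is the gene high in both.

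Time was compared between the 24 h and 72 h co-detecting cells by their levels. Ccl22 stood at 0.551 times its 24 h level at 72 h (0.419 to 0.722), and at 0.277 times without the highest cell of each library. Il4i1 stood at 0.558 times (0.404 to 0.768). Both genes were also lower at 72 h over all DC-like cells, at 0.558 and 0.591 times. Fscn1 stood at 1.37 times (1.04 to 1.81), Cacnb3 at 1.49 times (0.952 to 2.38) and Ccr7 at 1.28 times (0.935 to 1.77). These 3 were close to level within the 21-cell cluster, at 0.972, 1.14 and 1.10 times, and cells of that cluster were 9 of the 15 co-detecting cells at 24 h and 12 of the 16 at 72 h. Ccl17 was 1.27 times its 24 h level, but 0.905 times without the highest cell of each library. In the 21-cell cluster Ccl22 and Il4i1 were past 2-fold, both lower at 72 h, at 0.443 and 0.477 times, beside 8.28% of 773 other genes lower and 8.41% higher. Ccl17 stood at 0.876 times there (0.707 to 1.09). Without the highest cell of each library for each gene, Ccl22 stood at 0.190 times and Ccl17 at 0.446 times (0.327 to 0.607), both past 2-fold, and Il4i1 at 0.532 times, within it. The shares of other genes just given are for all cells of the cluster, and none is given with cells left out. Outside the co-detecting cells, DC-like cells had 18 UMIs of Ccl22 at 24 h and 4 at 72 h (25.9 and 4.80 CPM), while Ccl17 stood at 194 and 297.5 CPM. Of 6190 other genes there, 1.68% were at least 2-fold higher at 72 h and 1.78% lower. Over the 1200 other genes compared in the co-detecting cells, 6.17% were at least 2-fold higher at 72 h and 6.92% at least 2-fold lower, and none of the 6 genes was past 2-fold in either direction.

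Detection of pairs differed among the genes, and such percents also depend on how many cells had each gene. Of the 33 cells with Cacnb3, 21 had Il4i1 (63.6%), 19 had Fscn1 (57.6%), 17 had Ccr7 (51.5%) and 10 had Ccl17 (30.3%). Cacnb3 was in 19 of 43 cells with Fscn1 (44.2%) and in 14 of 4059 cells without it (0.345%). Of the 149 cells with Ccl17, 24 had Ccl22 (16.1%) and 13 had Ccr7 (8.72%), while 24 of the 52 cells with Ccl22 had Ccl17 (46.2%). Of the 105 cells with Ccr7, 51 were B cell-like, and 16 of the 105 had Fscn1 (15.2%).

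**Figure D4:**
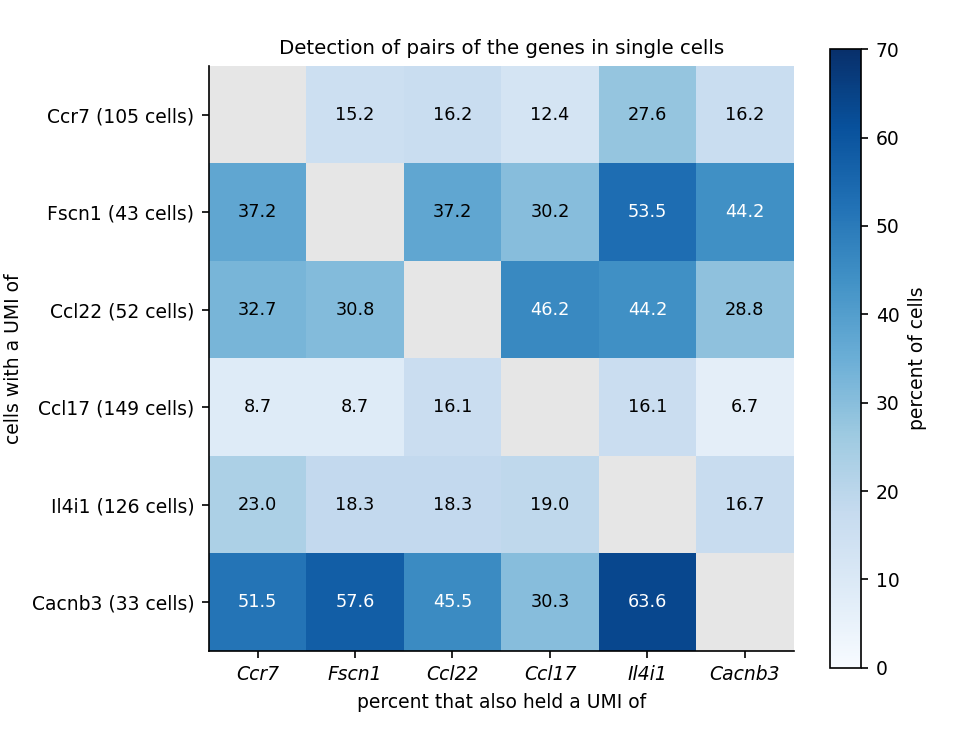
Percent of the cells with a UMI of the gene on the vertical axis that also held a UMI of the gene on the horizontal axis, over all 4102 cells of the 3 libraries. The Cacnb3 row is the darkest, with 63.6% for Il4i1 and 57.6% for Fscn1, and the Ccl17 row is pale, with 8.72% for Ccr7.

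Pearson's correlation of log-normalised counts over the 4102 cells is given as a description, since the cells share libraries and depth. Fscn1 and Cacnb3 were the closest pair at 0.82, followed by Fscn1 and Ccl22 at 0.61 and Ccl22 and Cacnb3 at 0.58. The chemokine pair stood at 0.42, and Ccr7 and Ccl17 were the farthest apart at 0.11. Among the 9878 genes compared, the 3 non-members closest to each gene were taken. Tbc1d4, a regulator of glucose transporter traffic, and Eno3, the muscle enolase of glycolysis, were among them for Ccr7, Fscn1, Ccl22, Il4i1 and Cacnb3, with correlations between 0.24 and 0.55. For Ccr7 and Il4i1 the third was Cd83, a surface marker of DC maturation, at 0.26 for both. For Fscn1 and Cacnb3 it was Tubb2b, a tubulin, at 0.37 and 0.38, and for Ccl22 it was Tspan33, a tetraspanin, at 0.34.
Ccl17 had other neighbours: Aldh1a2, an enzyme that makes retinoic acid, and Cd209a, both at 0.27, and Mgl2, a lectin of type 2 DCs, at 0.24. Aldh1a2 had 93 UMIs in all and stood at 170.0 CPM in the 21-cell cluster, 27.8 CPM in the Cd209a cluster and 1.74 CPM in Mo/Mφ-like cells. Cd209a stood at 713 CPM in the Cd209a cluster and had no UMI in the 21-cell cluster. For the mean of the 6 genes the 10 closest non-members were Tbc1d4, Eno3, Csrp1, Adam23, Tubb2b, Tspan33, Socs2, Apol7c, Rogdi and Serpinb6b, from 0.49 down to 0.29. Eno3 stood at 807 CPM in the 21-cell cluster and 12.5 CPM in the Cd209a cluster, Csrp1, a LIM-domain protein of the cytoskeleton, at 1071 and 70.1 CPM, and Tubb2b at 255 and 5.55 CPM.

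The rest of the maturation programme was read in the 31 co-detecting cells against the other 240 DC-like cells, whose median depth was higher, 6683.5 against 5257 UMIs. The list used was chosen with earlier results of these data known, so its counts are a description. It includes genes leading the 21-cell cluster, such as Tbc1d4, Apol7c and Serpinb6b. It held 55 genes that DCs are known to raise on maturation, 52 of them in the tables. Of these, 44 reached 20 UMIs over both groups, and Il15, Il15ra, Zmynd15, Slco5a1, Bcl2l14, H2-M2, Adcy6 and Eno2 did not. On the log2 scale of CPM + 10, 39 of the 44 were at least 2-fold higher in the co-detecting cells and none was at least 2-fold lower, with a median of 2.28. Over all 6657 genes compared 6.43% were at least 2-fold higher, 15% at least 2-fold lower, and the median was -0.20. At 4-fold the list had 27 and the background 1.44%. By library the list had 29 of 31 genes at 24 h, beside 7.44% of all genes, and 30 of 34 at 72 h, beside 8.30%. The 5 genes within 2-fold were Ebi3, Tnfsf9, Spred1, Il21r and Cst7, and a gene low in both groups could pass the minimum only by being high in one of them.

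The costimulatory genes stood out unevenly. Cd83 was at 503 against 45.4 CPM, with a UMI in 28 of 31 and 48 of 240 cells, and Cd40, the receptor for T cell help, at 169.6 against 19.9 CPM. Cd80 was at 67.9 against 14.3 CPM, and Cd86 at 153 against 70.9 CPM, a ratio of 2.15 (1.36 to 3.30). Cd274, which encodes the inhibitory ligand PD-L1, stood at 153 against 9.95 CPM and Cd200, another inhibitory ligand, at 136 against 1.24 CPM. Tnfrsf4, which encodes OX40, was in 8 of 31 cells and in none of the 240. The ratio was 78.8 when 3 counts over the 240 cells are taken as the floor, and its exact lower limit was 59.6. Genes of NF-kB signalling and cell survival went with them. Relb stood at 509 against 52.9 CPM, Traf1 at 763 against 104 CPM, Birc2 at 283 against 17.4 CPM, and Nfkb1, only just past 2-fold, at 254 against 121 CPM.
Chemokine and shape genes were in the list too. Ccl5, a chemokine for T cells, stood at 1023 against 48.5 CPM, and Cxcl16, the ligand of CXCR6, at 384 against 64.7 CPM. Marcksl1, an actin and membrane linker, stood at 1606 against 69.1 CPM, and Socs2, a brake on cytokine signalling, at 379 against 18.7 CPM. Apol7c was the most uneven, with 41 UMIs in 3 co-detecting cells of the 24 h library and none in the 240 cells.

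**Figure D5:**
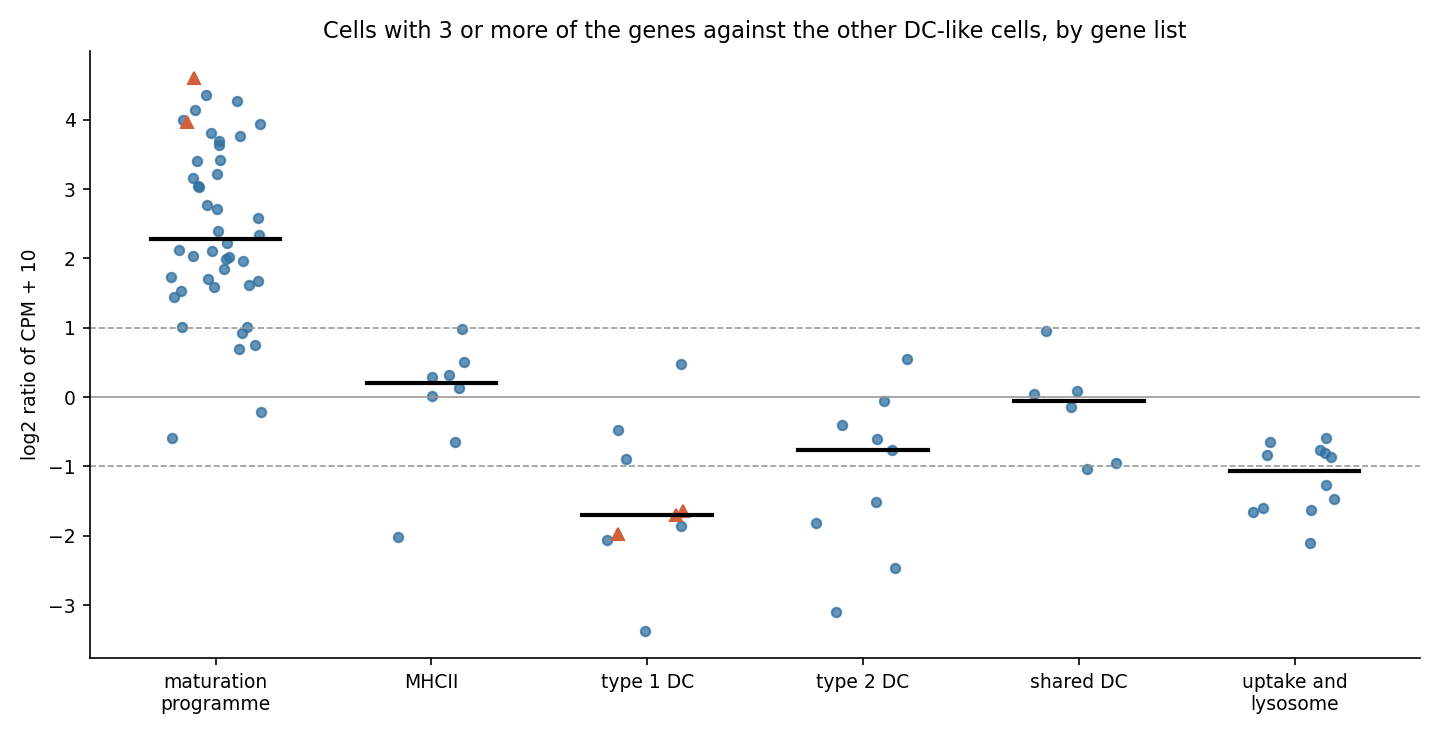
Log2 ratio of CPM + 10 in the 31 co-detecting cells over the other 240 DC-like cells (vertical axis) for each gene that reached 20 UMIs in 6 lists (horizontal axis), where points are genes, triangles are genes at 0 in one of the groups, black bars are medians and dashed lines mark 2-fold. The maturation list sits above the upper line in 39 of 44 genes with a median of 2.28, MHCII genes lie near 0 with a median of 0.21, and uptake and lysosome genes lie below with a median of -1.07.

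Antigen presentation and uptake were apart from each other. Of 8 MHCII genes, 7 were within 2-fold, among them H2-Aa at 11156 against 7819 CPM and Ciita, the MHCII transactivator, at 317 against 288 CPM. The exception was H2-DMb1, a chain of the peptide-loading chaperone H2-DM, at 294 against 1226 CPM, while its neighbour H2-DMb2 stood at 797 against 397 CPM. These are closely related copies, and reads could be split between them. Of 12 uptake and lysosome genes, 6 were at least 2-fold lower and none higher, beside 15% of all genes lower. The libraries differed in this count, with 3 of 12 lower at 24 h, near the 20.6% of all genes, and 10 of 12 at 72 h, beside 19%. The 6 over both libraries were Lyz2, lysozyme, at 1114 against 3475 CPM, Cd68 at 90.5 against 308 CPM, the mannose receptor gene Mrc1 at 17.0 against 106 CPM, and Fcgr1, Fcgr3 and Tlr2. The other 6, such as the protease genes Ctsb and Ctsd, were lower by less than 2-fold. The Mo/Mφ markers above, which share Lyz2, Fcgr1, Cd68 and Mrc1 with this list, were also lower in the co-detecting cells, and the part of Mo/Mφ RNA in the difference was not tested.

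Most subset markers were lower in the co-detecting cells than in the other DC-like cells, which include the 20 cells of the Xcr1 cluster. Of 9 conventional type 1 DC genes 6 were at least 2-fold lower and none higher, beside 15% of all genes lower, with Irf8, a factor these cells depend on, at 67.9 against 315 CPM and Naaa at 28.3 against 384 CPM. Xcr1, Clec9a and Tlr3 are 3 of the 6 and had no UMI in the co-detecting cells. With these 3 set at the floor of 3 counts the median of the list was -0.79 in place of -1.70. Batf3, another type 1 factor, stood at 243 against 172 CPM, with 315 against 134 CPM at 24 h and 189 against 199 CPM at 72 h. These type 1 levels, Irf8 among them, are not a comparison with the Cd209a cluster alone. Against that cluster, the 21-cell cluster had 2 of 5 type 1 genes compared at least 2-fold lower and none higher. Of all genes, 22.4% were lower there. Against the other DC-like cells, 4 of 9 conventional type 2 DC genes were at least 2-fold lower and none higher. They were Cd209a at 169.6 against 621 CPM and Clec10a at 56.5 against 358 CPM, with Itgam at 11.3 against 172 CPM. Clec4a2, the last of the 4, stood at 39.6 against 131 CPM. All 30 Cd209a UMIs of the co-detecting cells were in 1 cell. By library, 3 of the 9 type 2 genes were lower at 24 h, beside 20.6% of all genes, and 6 at 72 h, beside 19%. In each library 1 was higher, beside 7.44% of all genes at 24 h and 8.30% at 72 h. These were Mgl2 at 24 h, at 656 against 295 CPM, and Klrd1 at 72 h, at 497 against 181 CPM. Of 6 genes shared by conventional DCs only Kmo was at least 2-fold lower on the log2 scale of CPM + 10, at 56.5 against 126 CPM. This count is near the 15% of all genes lower. Itgax, the integrin CD11c, was just inside the 2-fold limit at 50.9 against 108 CPM. All 6 are markers that could name the DC-like class, as are Cd209a, Xcr1, Clec9a, Naaa and Klrd1. Their levels in the other DC-like cells were thus partly set by that naming. Flt3 stood at 141 against 67.8 CPM, but at 39.4 against 64.8 CPM at 24 h and 219 against 73.2 CPM at 72 h, and Zbtb46, a conventional DC factor, at 28.3 against 26.1 CPM.

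Ccr1 and Ccr2, receptors of inflammatory chemokines, were at least 2-fold lower in the co-detecting cells, with Ccr1 at 11.3 against 93.3 CPM and Ccr2 at 90.5 against 437 CPM. Cx3cr1, the fractalkine receptor, stood at 11.3 against 17.4 CPM. Ccr7 itself, which chose the cells, stood at 989.5 against 0.622 CPM. Of the other calcium channel subunit genes listed, 6 were in the tables and only Cacna1s, a pore subunit, reached 20 UMIs, at 84.8 against 9.95 CPM in 8 of 31 and 12 of 240 cells. Of the other amino acid catabolism genes, 4 were in the tables and 2 reached 20 UMIs: Kynu, of tryptophan breakdown, at 67.9 against 28.0 CPM and Arg1, arginase, at 50.9 against 79.0 CPM.

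Outside the lists, genes were named by the size of the ratio among 1597 genes with at least 100 CPM in one of the groups. The 10 largest were Fabp5, Eno3, Apol7c, Marcksl1, Serpinb6b, Ccl5, Tbc1d4, Tnfrsf4, Nudt17 and Lad1, of which Fabp5, Eno3 and Lad1 were not in the maturation list. Fabp5, a fatty acid binding protein, stood at 5694 against 201 CPM, was in 30 of 31 cells, and was at 1258 CPM in Mo/Mφ-like cells. Lad1, a filament-anchoring protein, had 23 UMIs in 14 of 31 cells and none in the 240. The 10 smallest were Retnla, Naaa, Itgam, Ifi203, Ifitm6, Ly6a, Ear2, Lat2, Emb and Pilra. Retnla, a product of alternatively activated macrophages, stood at 22.6 against 516 CPM, with 4 UMIs in 4 cells against 829 UMIs in 35 cells. That difference came from the 72 h library, with 39.7 against 992 CPM, since at 24 h the levels were 0 and 2.88 CPM. Ly6a stood at 17.0 against 203 CPM and lay the other way, with 39.4 against 446 CPM at 24 h and 0 against 8.40 CPM at 72 h. Ifitm6 stood at 39.6 against 400.0 CPM and was lower in both libraries.
Against the Mo/Mφ-like cells, 38 of 47 maturation genes were at least 2-fold higher, beside 7.01% of all genes, and all 12 uptake and lysosome genes were at least 2-fold lower, beside 13.2%.

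The partners of these genes were few. Ccl19 and Ccl21a, the ligands of CCR7, were not analysed here. Ccr4, the receptor of both chemokines, had a UMI in 21 cells, of which 20 were T cell-like: 3 of 188 naïve, 5 of 71 at 24 h and 12 of 137 at 72 h. DC-like cells had no Ccr4. Foxp3, the factor of regulatory T cells, was in 0 of 188 naïve T cell-like cells, where 3 cells would make 1.60%. It was in 4 of 71 at 24 h and in 7 of 137 at 72 h, and 5 cells had both Ccr4 and Foxp3. Il2ra, the high-affinity interleukin 2 receptor chain known from regulatory T cells and activated DCs, was in 7 of 31 co-detecting cells and in none of the 240 other DC-like cells.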

How the data were processed

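The 3 libraries were grouped by time point as the labels give it. Per the labels, UMIs were counted by the authors with Cell Ranger 3.0.2 from 3' reads of the 10x Genomics platform, on the mouse build GRCm38/mm10. They removed cells with few genes or a high mitochondrial share. What was deposited is the UMI count of each gene in each cell, in whole numbers and without scaling. All 4102 cells were kept.

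Cells were log-normalized and clustered together without correction between libraries in Seurat 5.3.0 (R 4.3.3), with 2000 variable genes, 30 principal components, 20 neighbours and resolution 0.8. The 6 genes and the listed genes that are no class marker, 106 in all, were left out of the variable genes. Listed genes that are also class markers were not left out, among them Flt3, Kmo, Cd209a, Xcr1, Lyz2 and Mrc1. The lists that hold them are therefore not independent of the clusters. A cluster took a class name when at least 3 markers were in at least 10% of its cells and at least 2-fold above other cells, after 10 CPM had been added to both levels. Clusters that no class met were scored again for each class against the named cells of the other classes, which named 3 Mo/Mφ-like clusters (1344 of 2268 cells, with 14 to 17 markers each). A name was withdrawn where genes of dividing cells outnumbered the class's markers among the 10 leading genes, or where a neutrophil name met an eosinophil marker among them. These rules were written after the clusters had been seen, so the class names are rebuilt here and can differ from the study's. Sums, intervals and correlations were computed in Python 3.11.15 (scipy 1.17.1, numpy 2.4.6, pandas 2.3.3), with figures from matplotlib 3.10.9. Intervals are exact (Poisson, conditional Poisson for ratios, Clopper-Pearson for shares) at a level of 95%, and the interval of ratios was tested on simulated data. Where a share is 0, the text gives the limit that 3 counts would make.

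The 6 genes, the gene lists and the markers were chosen with earlier results of these data known. The genes named are the 6, the listed genes, the 3 non-members closest to each gene and the 10 closest to their mean among genes with at least 50 UMIs, and the 10 largest and 10 smallest ratios among genes with at least 100 CPM in one of the groups and at least 20 UMIs over both. No model across samples was fitted, since each time point is 1 library. Scrublet in scanpy 1.11.5 called 16 of 4102 cells, too few to have worked, and called none of the co-detecting cells, so doublets were kept and not otherwise treated. Positions are from GENCODE vM21. The alternatives were other resolutions (0.5 and 1.2), 3000 variable genes, 15 principal components, the 6 genes and listed genes kept among the variable genes, a stricter cell filter, removal of Scrublet calls, means over cells, thinning, and other numbers of genes per cell. Il12b, Tnfsf4, Cacnb2, Cacna1c, Ido2 and Nos2 were not analysed here. Some listed genes are not reported here.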

Additional observations from a re-analysis of the deposited data

How the results depend on the processing

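No paired analysis was possible because each time point is 1 library and no sample shares a replicate number with another, and for the same reason no library could be left out within a time point. All 6 genes kept their highest level in DC-like cells under each setting but one: with the 6 genes and the listed genes kept among the variable genes, Ccr7 stood at 95.8 CPM in DC-like and 97.6 CPM in B cell-like cells, leaving 5. The share of co-detecting cells depended on how many genes were asked for. With at least 2 genes the naïve share, 1.38%, was above that at 24 h, 1.09%, and the 72 h share was 2.50%, and 59.4% of such cells were DC-like. With at least 4 genes the shares were 0 (naïve), 0.362% (24 h) and 1.13% (72 h), and with cells thinned to 1000 UMIs 0, 0.367% and 0.836%. After removal of cells with at least 2 markers of another class, an alternative added after the data were seen that took out 3053 of 4102 cells and 15 of the 31 co-detecting cells, the shares were 1.36% at 24 h and 2.41% at 72 h. The cause was not tested, beyond the fewer cells left in the total. Under the other settings the DC-like part of the co-detecting cells ran from 81.3% to 95.5% and the number of maturation genes at least 2-fold higher from 26 to 40. Of 96 alternative values of the level of a gene in DC-like cells, 81 stayed within the counting interval of the main value and 15 did not. The depth of the naïve library, with 20 DC-like cells, limits what its values of 0 can show.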
